A study of Mus musculus with 7 samples.

Results

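The 44 genes described here make the machinery of S phase, the part of the cell cycle in which the genome is copied, and the nucleotides it consumes. They were listed by name and found by Ensembl identifier among 13641 genes with a transcript start or end in the files. RNA was sequenced from 7 cultures, 1 each for chlorpyrifos, DDT, rotenone, carbaryl, deltamethrin and imidacloprid, and 1 control. All 7 came from wild-type mouse embryonic stem cells of the B6G-2 line, which formed embryoid bodies for 6 days and were grown as neural progenitors with bFGF and EGF. At day 14 the progenitors were put into BrainPhys medium with B27 to form nerve and glial cells, and those given an insecticide were exposed for 1 day. No exposure time is given for control. The labels give no dose, no vehicle and no batch, and they call the tissue brain although the cells were made in culture.

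DNA replication starts where the origin recognition complex and CDC6 with CDT1 load the ring of MCM2 to MCM7 onto DNA in G1. In S phase, CDC45 and the GINS complex turn that ring into the moving helicase, and primase, the polymerases and the sliding clamp PCNA follow it. E2F transcription factors and cyclin E drive many of these genes when a cell commits to divide. Neural progenitors divide often, and they leave the cycle as they become neurons, so the level of these genes is widely used as a sign of proliferation.

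The unit is FPKM, a fragment count scaled to transcript length and library size, as the authors deposited it for each transcript start and each transcript end. A gene's starts and its ends should sum to the same value, so a gene was called usable when both sums, averaged over the 7 libraries, lay within 0.3 of each other on the log2 scale with a mean of at least 1 FPKM. Of the 44 genes, 31 were usable, among 6299 usable genes in all. In 25 of the 31 the sums also agreed within 0.3 in each library, the others being Mcm5, Pola1, Pola2, Rfc2, Chaf1a and Chaf1b. Another 5 had a start total only (Mcm7, Orc6, Gins1, Rpa2 and Dnmt1), and in 5 the ends disagreed (Mcm10, Orc1, Cdc45, Rfc5 and Tyms). Cdt1, Gins2 and Fen1 had no start or end event and are not analysed here. Fold changes are differences of log2(FPKM + 1), insecticide against control. With 1 library per group there was no estimate of replicate error, so no difference below could be tested. The files give no read counts, and the depth is unknown.

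Promoters of the genes were searched for sequence motifs, which the choice of genes did not use. The RefSeq table of promoter windows (GRCm38.p6, 250 bases before to 50 bases after the start) held 36 of the 44 genes. The windows were searched on both strands for the E2F-type sites TTTCCCGC and TTTGGCGC and for the CCAAT box. An E2F-type site stood in the windows of 11 of the 36 genes, 30.6%, against 1.8% of all 27025 genes in the table. These were Mcm3, Mcm5, Mcm6, Mcm7, Cdc6, Cdt1, Gins3, Pola1, Pold1, Rfc3 and Dnmt1. A CCAAT box stood in 22 of 36, 61.1%, against 41.1% of all genes. A match to these letters is a description and does not show that a factor binds there. The windows of 3 helicase subunits and Cdc6 are shown because they hold an E2F-type site, and that of Paics because its transcript starts are described further on. Each runs from 5′ to 3′ on the gene's own strand, with E2F-type sites and CCAAT boxes of either strand in capitals. The Cdc6 window belongs to a minor first exon (98908151 to 98908319), which held 21.5% of the start total with rotenone and 10.3% with carbaryl, against 16.2% in control, and was not listed with the other insecticides. The main first exon of Cdc6 (98907801 to 98907981) begins before the window, and the marked site lies past its end.
Mcm3 (chr1:20820263-20820562, minus strand): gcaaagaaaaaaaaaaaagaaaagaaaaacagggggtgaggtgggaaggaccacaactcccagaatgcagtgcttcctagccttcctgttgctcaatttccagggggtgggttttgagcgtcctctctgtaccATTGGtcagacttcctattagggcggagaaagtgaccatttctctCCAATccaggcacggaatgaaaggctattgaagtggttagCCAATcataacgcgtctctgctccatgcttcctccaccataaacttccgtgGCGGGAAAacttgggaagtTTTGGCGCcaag
Mcm5 (chr8:75109259-75109558, plus strand): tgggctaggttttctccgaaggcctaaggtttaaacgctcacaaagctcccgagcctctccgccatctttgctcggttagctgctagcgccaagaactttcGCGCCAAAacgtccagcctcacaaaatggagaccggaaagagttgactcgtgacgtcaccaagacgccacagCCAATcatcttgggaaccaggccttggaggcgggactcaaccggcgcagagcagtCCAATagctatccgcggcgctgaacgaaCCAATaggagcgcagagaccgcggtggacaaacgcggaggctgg
Mcm6 (chr1:128359656-128359955, minus strand): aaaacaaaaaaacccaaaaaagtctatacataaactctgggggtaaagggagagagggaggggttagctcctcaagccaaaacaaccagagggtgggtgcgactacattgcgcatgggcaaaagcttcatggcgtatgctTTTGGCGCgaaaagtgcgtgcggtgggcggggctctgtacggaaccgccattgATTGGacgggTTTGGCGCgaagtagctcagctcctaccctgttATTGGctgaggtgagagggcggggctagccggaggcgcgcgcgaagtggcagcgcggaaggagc
Cdc6 (chr11:98907901-98908200, plus strand): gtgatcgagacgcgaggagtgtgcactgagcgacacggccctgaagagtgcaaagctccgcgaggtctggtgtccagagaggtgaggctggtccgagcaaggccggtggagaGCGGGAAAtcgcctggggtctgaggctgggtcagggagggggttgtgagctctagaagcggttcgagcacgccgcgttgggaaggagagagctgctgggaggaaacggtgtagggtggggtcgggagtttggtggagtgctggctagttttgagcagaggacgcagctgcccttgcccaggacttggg
Paics (chr5:76951052-76951351, plus strand): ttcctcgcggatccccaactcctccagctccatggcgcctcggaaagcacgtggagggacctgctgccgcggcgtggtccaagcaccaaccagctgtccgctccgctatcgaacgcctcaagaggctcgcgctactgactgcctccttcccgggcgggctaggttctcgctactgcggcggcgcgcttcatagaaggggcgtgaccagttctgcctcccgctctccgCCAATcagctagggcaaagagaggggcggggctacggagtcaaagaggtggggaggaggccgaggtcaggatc

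All 31 usable genes were expressed in every library, at means of 6.74 FPKM (Gins3) to 188 FPKM (Pcna). Nes, Vim and Sox2, markers of neural progenitors, were listed in all 7 libraries, while the pluripotency genes Pou5f1 and Nanog were listed in 1 library each, at 0.637 FPKM with DDT and 0.150 FPKM with carbaryl. Of 6 pluripotency markers searched, 3 were listed in no library, and 1, which was usable, was listed in all 7. The 6 markers summed to 1.13 FPKM in control and to 1.26 to 1.71 FPKM with the insecticides. In control, 10 neuron markers summed to 396 FPKM and 8 astrocyte markers to 243 FPKM. Most of the 31 genes differed little between cultures. Between the highest and lowest of the 7 libraries, the median gene differed by 0.39 on the log2 scale, against 0.37 for 6247 usable genes listed in all 7. A range of 1 or more (2-fold) was reached by 4 of 31 (12.9%), Paics, Chaf1a, Rfc4 and Dut, against 9.11% of all genes. A range of 0.3 or less was seen in 14 of 31 (45.2%), against 37.6%.

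**Figure D1:**
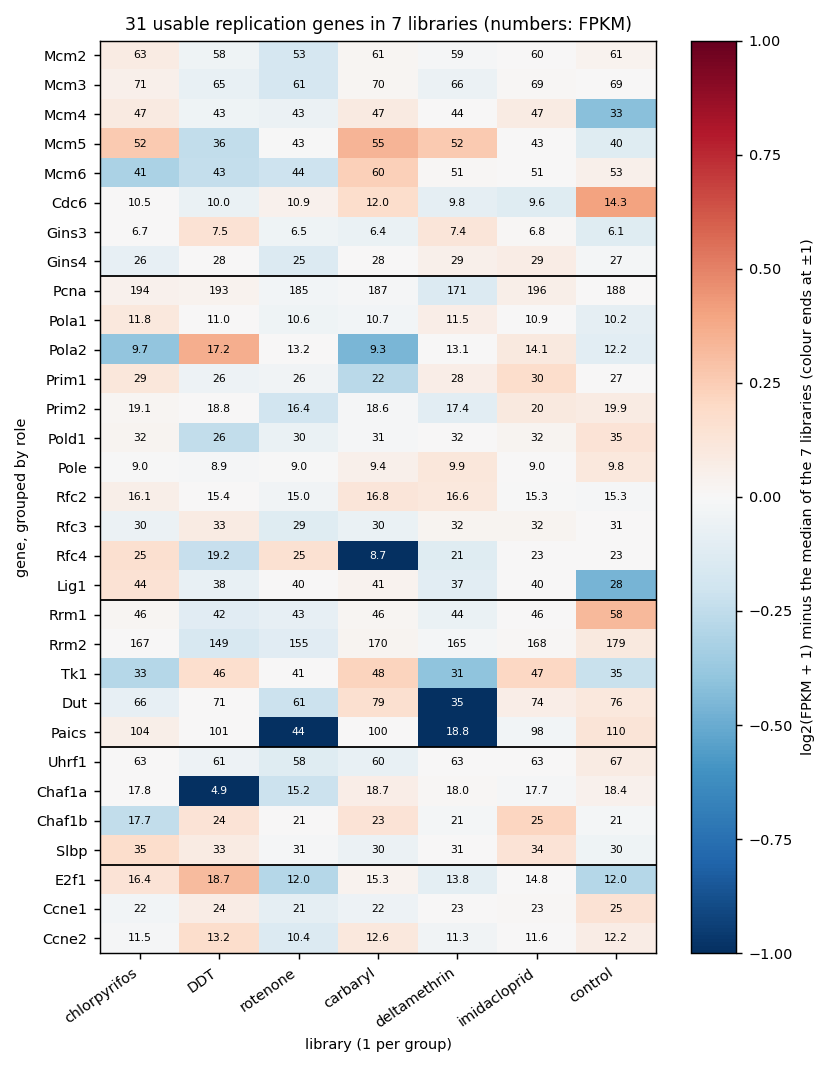
Each row is 1 of the 31 usable genes and each column 1 library. Colour is log2(FPKM + 1) minus the gene's median over the 7 libraries, and the number in each cell is FPKM. Black lines separate licensing and helicase, polymerases and clamp, nucleotide supply, chromatin, and E2F with cyclin E. The darkest cells are Paics with deltamethrin (18.8 FPKM) and rotenone (43.999), Dut with deltamethrin (34.5), Rfc4 with carbaryl (8.70) and Chaf1a with DDT (4.90).

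Against control, the 31 genes as a group lay near 0 with every insecticide. The median log2 fold was -0.12 with rotenone, -0.07 with DDT, -0.06 with chlorpyrifos, -0.04 with deltamethrin, -0.01 with carbaryl and 0.01 with imidacloprid. Over all usable genes the same medians were at most 0.01 from 0. All 6 comparisons share the 1 control library, so they are not independent of each other. With rotenone 5 of 31 genes were at least 1.2-fold lower and 2 higher, where 11.5% of all genes were lower and 12.3% higher by that much. With DDT 5 were lower and 5 higher (12.5% and 12.3% of all genes), and with chlorpyrifos 4 and 4 (11.6% and 11.2%). With carbaryl 4 were lower and 5 higher (11.1% and 10.8%), with deltamethrin 4 and 3 (11.4% and 11.1%), and with imidacloprid 2 and 4 (10.4% and 11.2%). Among 31 genes each of these backgrounds comes to 3 or 4 genes, and the counts lay between 2 and 5. No usable gene of the set was 2-fold higher with any insecticide, where the share of all genes was 0.734% with chlorpyrifos, 0.781% with DDT, 0.702% with rotenone, 0.847% with carbaryl, 0.718% with deltamethrin and 0.877% with imidacloprid. Those 2-fold lower were Chaf1a with DDT, Paics with rotenone, Rfc4 with carbaryl, and Paics and Dut with deltamethrin. Of all genes, 0.957% were 2-fold lower with DDT, 0.941% with rotenone, 1.29% with carbaryl and 0.989% with deltamethrin. With chlorpyrifos and imidacloprid 0 of 31 genes were, where 0.877% and 0.846% of all genes were.

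**Figure D2:**
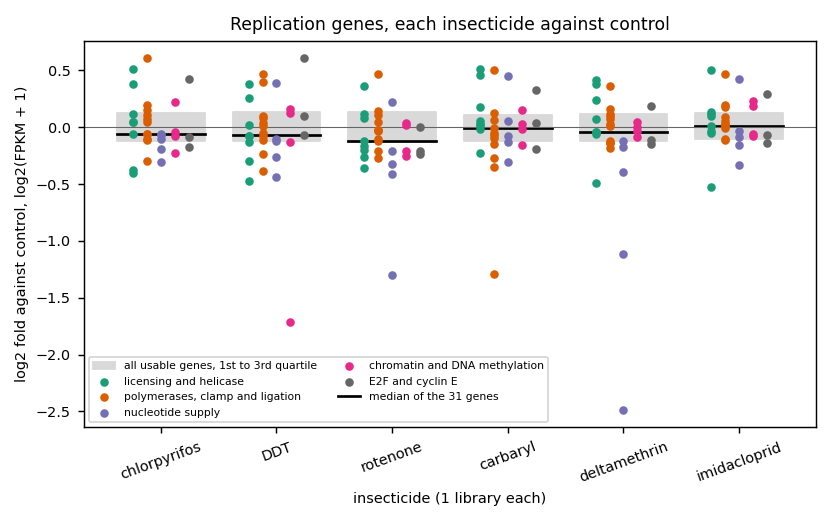
Points are the log2 folds of the 31 usable genes against control on the log2(FPKM + 1) scale, 1 column of points per role within each insecticide. The black line is their median, and the grey box spans the first to the third quartile of all usable genes. The medians lie between -0.12 with rotenone and 0.01 with imidacloprid, and the lowest point is Paics with deltamethrin at -2.49.

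The rotenone library stood lowest of the 7 more often than any other. Rotenone blocks complex I of the respiratory chain. Its library held the lowest value for 9 of 31 genes (29.0%), against 16.1% of all usable genes, and the highest for 0 of 31, against 16.5%. The 9 genes were Mcm2, Mcm3, Gins4, Prim2, Rfc2, Rfc3, Uhrf1, Ccne1 and Ccne2. Set against the median of the other 6 libraries, 26 of 31 genes were lower with rotenone, where 49.8% of all genes were, and the median log2 difference was -0.09. Those not lower were Cdc6, Pola2, Rfc4, Lig1 and Tk1. Set against the median of the other libraries in the same way, 18 of 31 genes were lower with deltamethrin (51.0% of all genes), 17 with DDT (47.7%), 12 with carbaryl (52.2%), 10 with chlorpyrifos (50.4%), 8 with imidacloprid (46.6%) and 14 in control (51.7%). The count for rotenone was the highest of the 7. With rotenone 28 of 31 genes were lower than with imidacloprid, 26 than with carbaryl, 26 than with chlorpyrifos, 22 than with deltamethrin, 20 than with DDT and 20 than in control. Of all genes 51.7%, 49.0%, 49.6%, 48.9%, 51.5% and 49.0% were lower in these comparisons, in the same order. These 6 counts share the 1 rotenone library, so they are independent neither of each other nor of the count against the median. The 31 genes were read in the same libraries, so a count of genes is not a count of replicates. The differences were small, and none of the 6 medians was beyond -0.14. Among the 10 listed genes without a usable value, the larger end total was lowest with rotenone for 5 (Mcm7, Mcm10, Cdc45, Rpa2 and Dnmt1). Read by the larger end total, rotenone was lowest for 15.9% of all genes, usable ones included. The Mcm7 difference stood largely on a start inside an internal exon, described below. By its starts Mcm10 was lower with deltamethrin (9.06 FPKM) than with rotenone (9.37). For Cdc45 rotenone (17.5 FPKM) was close to deltamethrin (17.7). DDT was lowest for 6 of 31 usable genes (15.1% of all genes). Among the 6 libraries left without DDT, rotenone was lowest for 14 of 31 genes (18.6% of all genes). It was lowest for 12 without deltamethrin (18.7%) and 12 without control (18.6%), and for 9 each without chlorpyrifos (18.2%), carbaryl (18.7%) or imidacloprid (18.2%). In bulk RNA, fewer cells in S phase and less of these RNAs per cell cannot be told apart. The summed level of 8 fibroblast markers was 36.5 FPKM with rotenone, 25.6 to 28.2 with the other insecticides and 28.2 in control, with none of the markers at 0 in all libraries. The summed level of 10 progenitor markers was 1280 FPKM with rotenone, 1359 to 1538 with the other insecticides and 1395 in control, with Sox1 not listed. Only 4 of these progenitor markers were usable, and with rotenone 2 were higher and 2 lower than in control, with a median log2 fold of 0.03. The summed level of 10 neuron markers was also lowest with rotenone, at 370 FPKM, against 398 to 431 with the other insecticides and 396 in control. Of these neuron markers only 4 were usable, and 2 were listed in no library. With rotenone 2 of the 4 were higher and 2 lower than in control, with a median log2 fold of 0.06. The part of all these markers in the result was not tested.

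**Figure D3:**
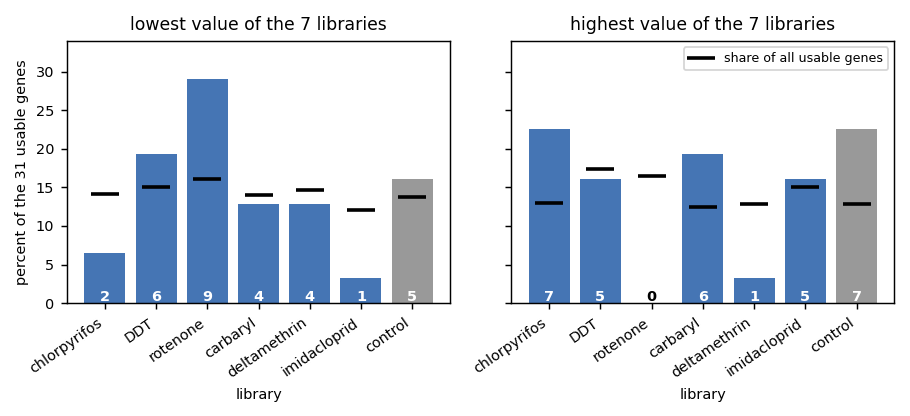
Bars give the percent of the 31 usable genes whose lowest (left) or highest (right) value of the 7 libraries was in the named library, with the count at the foot of each bar. Black marks give the same share among all usable genes. Rotenone has 9 genes at the lowest value and 0 at the highest, and chlorpyrifos 2 and 7.

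The helicase ring is made of 6 different subunits, MCM2 to MCM7, 1 copy of each, and their RNAs did not vary alike between libraries. Mcm2 (chromosome 6, 88883474 to 88898780) stood at 63.4 FPKM with chlorpyrifos, 58.1 with DDT, 53.2 with rotenone, 60.7 with carbaryl, 59.5 with deltamethrin and 59.9 with imidacloprid, against 61.3 in control. Mcm3 stood at 71.1, 65.1, 61.2, 69.5, 66.0 and 69.4 FPKM in the same order of insecticides, against 68.7 in control. Chlorpyrifos was highest and rotenone lowest for both genes. Both varied by less than 1.2-fold over the 7 libraries, 1.19-fold and 1.16-fold.

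Mcm4 (chromosome 16, 15623897 to 15637400) stood at 47.4 FPKM with chlorpyrifos, 43.2 with DDT, 42.6 with rotenone, 47.4 with carbaryl, 44.4 with deltamethrin and 47.1 with imidacloprid, against 33.0 in control. The control library was thus below all exposed ones, which lay between 42.6 and 47.4 FPKM, and the log2 folds were 0.36 to 0.51. Mcm6 (chromosome 1, 128331590 to 128359664) did otherwise, with 40.5 FPKM for chlorpyrifos, 42.8 for DDT, 43.8 for rotenone, 59.97 for carbaryl, 51.2 for deltamethrin and 50.8 for imidacloprid, against 52.8 in control. Its start total stood on 1 first exon, while its ends fell on 2 events whose shares varied. The longer last exon (128331593 to 128333656) held 64.5% of the end total with chlorpyrifos and 17.7% with carbaryl, against 42.6% in control. Mcm5 (chromosome 8, 75109569 to 75128439) stood at 51.8 FPKM with chlorpyrifos, 36.1 with DDT, 43.01 with rotenone, 54.8 with carbaryl, 51.8 with deltamethrin and 43.03 with imidacloprid, against 39.6 in control, but its start and end totals differed by up to 0.37 on the log2 scale in single libraries.

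Mcm7 (chromosome 5, 138164583 to 138172422) could be read from its starts only. They summed to 92.1 FPKM with chlorpyrifos, 87.2 with DDT, 70.6 with rotenone, 95.1 with carbaryl, 78.5 with deltamethrin and 82.4 with imidacloprid, against 101 in control. Control was highest and rotenone lowest. The difference with rotenone stood largely on 1 of its 2 main starts (138170317 to 138170381). That start was at 0.455 FPKM with rotenone, 7.36 to 26.7 with the other insecticides and 22.8 in control. It lies inside an internal exon (138170317 to 138170396). A retained intron of the gene (138169473 to 138169560) had similar values across libraries, with 0.0282 FPKM with rotenone and 22.8 in control. The upstream first exon (138171726 to 138172422) lay between 64.0 and 73.4 FPKM in exposed libraries and at 74.1 in control. Rotenone was not lowest on this exon, at 66.2 FPKM, against 64.0 with imidacloprid and 64.1 with DDT.

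**Figure D4:**
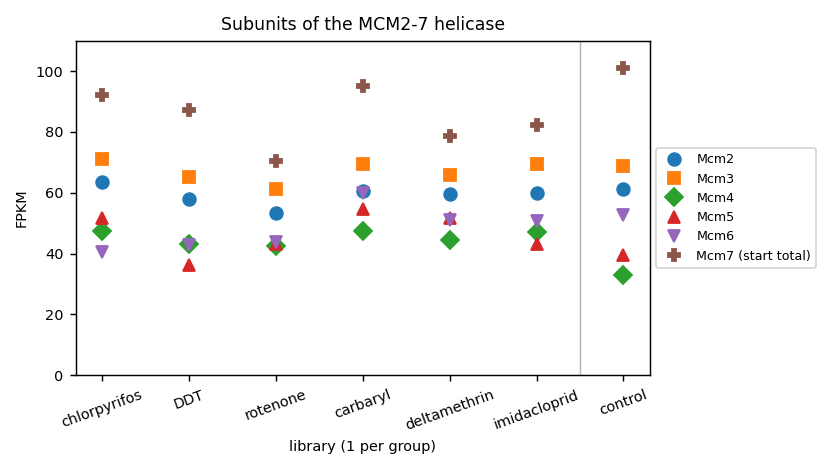
Points give FPKM of the 6 helicase subunits in each library, with the start total for Mcm7 and the mean of start and end totals for the others. The vertical line sets off control. Mcm4 is lowest in control (33.0 FPKM) and Mcm7 is highest there (101), while Mcm2 and Mcm3 are lowest with rotenone (53.2 and 61.2).

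Among the factors that load and start the helicase, Cdc6 was lower than control with every insecticide. Cdc6 (chromosome 11, 98907801 to 98923940), which places the ring on DNA together with CDT1, stood at 10.5 FPKM with chlorpyrifos, 10.003 with DDT, 10.9 with rotenone, 12.04 with carbaryl, 9.84 with deltamethrin and 9.59 with imidacloprid, against 14.3 in control. All exposed libraries were below control, with log2 folds of -0.53 to -0.23. A second first exon, at 2.31 FPKM in control, was also listed with rotenone (2.34) and carbaryl (1.24). Gins3, of the complex that completes the helicase, stood at 6.69, 7.49, 6.48, 6.35, 7.35 and 6.77 FPKM with chlorpyrifos, DDT, rotenone, carbaryl, deltamethrin and imidacloprid, against 6.08 in control, which was the lowest. Gins4, of the same complex, lay between 25.03 and 29.2 FPKM in exposed libraries, on both sides of control at 27.3. Gins1, from its starts, lay between 21.3 and 23.6 FPKM, against 20.95.

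The other loading factors could not be given as folds. Orc1, the largest subunit of the origin recognition complex, had start totals of 4.68, 4.09, 4.50, 3.90, 3.99 and 3.66 FPKM with chlorpyrifos, DDT, rotenone, carbaryl, deltamethrin and imidacloprid, against 4.33 in control. Its end totals were 3.23, 2.61, 3.26, 3.19, 3.40 and 3.66 FPKM in that order, against 3.01. Orc6 had start totals of 33.1 to 40.8 FPKM, against 38.5. Cdc45, which joins the MCM ring in the moving helicase, had end totals of 17.9, 19.6, 17.5, 20.5, 17.7 and 20.4 FPKM in that order, against 20.5. A start was listed with chlorpyrifos (15.3 FPKM) and deltamethrin (16.3 FPKM) and in no other library, control included. Mcm10, which helps to activate the helicase, had start totals of 12.2, 11.1, 9.37, 12.2, 9.06 and 12.5 FPKM in that order, against 11.3, and end totals of 12.7, 11.9, 9.93, 20.2, 14.6 and 11.5, against 14.95. Its first exons differed between libraries. Its first exon nearest the gene's upstream end held 100% of the start total with chlorpyrifos, 82.4% with DDT, 20.6% with rotenone, 100% with carbaryl, 35.5% with deltamethrin and 33.6% with imidacloprid, against 31.5% in control.

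The polymerases, primase and clamp differed little between most libraries. Pcna, the clamp that holds the polymerase on DNA, stood at 194, 193, 185, 187, 171 and 196 FPKM with chlorpyrifos, DDT, rotenone, carbaryl, deltamethrin and imidacloprid, against 188 in control. The catalytic subunits of polymerase alpha (Pola1) and polymerase epsilon (Pole) varied by 1.16-fold and 1.10-fold over the 7 libraries. Pola1 was lowest in control, at 11.8, 11.0, 10.6, 10.7, 11.5 and 10.9 FPKM with chlorpyrifos, DDT, rotenone, carbaryl, deltamethrin and imidacloprid, against 10.2. Pola2, the accessory subunit of polymerase alpha, stood at 9.74, 17.2, 13.2, 9.31, 13.1 and 14.1 FPKM in that order, against 12.2 in control, with chlorpyrifos and carbaryl below control and the others above it. Of the 11 usable genes with this role, the median log2 fold lay between -0.06 with carbaryl and 0.05 with chlorpyrifos. Pold1, the catalytic subunit of polymerase delta, stood at 32.2, 26.4, 30.02, 31.3, 31.5 and 32.1 FPKM in that order, against 34.8 in control, which was the highest. The primase subunits Prim1 (22.1 to 30.5 FPKM, against 26.9) and Prim2 (16.4 to 20.2, against 19.9) overlapped control on both sides, and so did the clamp loader genes Rfc2 (15.02 to 16.8, against 15.3) and Rfc3 (28.6 to 33.0, against 31.2). Rpa2, of the complex that coats single-stranded DNA, had start totals of 27.7 FPKM with rotenone and 31.3 to 34.4 with the other insecticides, against 34.7 in control. Rfc5, also of the clamp loader, had start totals of 10.7, 13.5, 14.9, 14.9, 12.8 and 14.3 FPKM with chlorpyrifos, DDT, rotenone, carbaryl, deltamethrin and imidacloprid, against 15.7 in control, but its end totals did not pass 1.88 FPKM.

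Lig1 and Rfc4 differed more. Lig1 (chromosome 7, 13277283 to 13311433), the ligase that joins the fragments of the lagging strand, stood at 43.9 FPKM with chlorpyrifos, 37.7 with DDT, 39.7 with rotenone, 40.7 with carbaryl, 36.8 with deltamethrin and 39.6 with imidacloprid, against 28.4 in control. Control was below every exposed library, with log2 folds of 0.36 to 0.61. Rfc4 (chromosome 16, 23113943 to 23127737), a subunit of the clamp loader, stood at 25.5, 19.2, 25.3, 8.70, 20.8 and 22.7 FPKM in the same order of insecticides, against 22.8 in control. The carbaryl library was far below the rest, with a log2 fold of -1.29. It was also the library in which another last exon was used. The end event with the longer last exon held 88.1% of the end total with carbaryl, 16.8% with rotenone and 0.784% to 5.55% with the other insecticides, against 0.996% in control.

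Genes of nucleotide supply held the largest single difference. Paics (chromosome 5, 76951307 to 76967509) encodes an enzyme of purine synthesis, and it stood at 104 FPKM with chlorpyrifos, 101 with DDT, 43.999 with rotenone, 100.5 with carbaryl, 18.8 with deltamethrin and 98.3 with imidacloprid, against 110 in control. The deltamethrin and rotenone libraries were low, with log2 folds of -2.49 and -1.30, and the highest library was 5.85-fold above the lowest. Its single end event stood at 18.9 FPKM with deltamethrin and 44.03 with rotenone, against 110. Starts and ends of a gene should sum to the same value, so this is not a second measurement. Ppat, its neighbour transcribed the other way, which encodes the first enzyme of the same pathway, stood at 15.8 FPKM with deltamethrin and 14.7 with rotenone, against 14.8.

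The starts of Paics varied between libraries as well. Most of the start total stood on 2 first exons, one from 76951307, inside the window shown above, to 76951835, and a shorter one from 76951368, just past that window, to 76951401. The shorter one held 53.3% of the start total with chlorpyrifos, 49.7% with DDT, 13.02% with rotenone, 8.07% with carbaryl, 11.4% with deltamethrin and 21.9% with imidacloprid, against 55.5% in control. With rotenone and deltamethrin a further 9.44% and 11.5% stood on a first exon that ends 4 bases later, listed in no other library. With carbaryl 13.7% stood on another first exon, from 76951307 to 76951668, which was likewise listed in no other library. The share of the shorter exon was low in 4 libraries, and with carbaryl and imidacloprid among them the gene total was near that of control. Whether the share and the gene total are linked was not tested.

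Dut (chromosome 2, 125247190 to 125258608), whose enzyme keeps uracil out of DNA by breaking down dUTP, stood at 66.4 FPKM with chlorpyrifos, 70.5 with DDT, 60.6 with rotenone, 79.0 with carbaryl, 34.5 with deltamethrin and 74.1 with imidacloprid, against 76.0 in control. The deltamethrin library was the low one, with a log2 fold of -1.12. The gene has 2 first exons, and in human they give a nuclear and a mitochondrial form of the enzyme. Both were low with deltamethrin, the upstream one at 23.4 FPKM against 55.5 in control and the downstream one at 11.1 against 20.5.

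Rrm1 (chromosome 7, 102441695 to 102469771), the large subunit of ribonucleotide reductase, which makes deoxyribonucleotides, stood at 46.4, 42.3, 43.2, 46.5, 43.6 and 45.8 FPKM with chlorpyrifos, DDT, rotenone, carbaryl, deltamethrin and imidacloprid, against 57.7 in control. Exposed libraries lay close together and below control, with log2 folds of -0.44 to -0.31. The small subunit Rrm2 was likewise highest in control, at 167, 149, 155, 170.1, 165 and 168 FPKM in the same order, against 179, with log2 folds of -0.26 to -0.07. Tk1, thymidine kinase of the salvage route, lay between 30.8 FPKM with deltamethrin and 48.1 with carbaryl, on both sides of control at 35.01. In control 65.6% of its end total stood on an event outside the annotated gene. Its start total should sum to the same value as its ends, so it cannot check the level in control. Tyms (chromosome 5, 30058202 to 30073617), which makes thymidylate, had start totals of 9.77 FPKM with chlorpyrifos, 21.6 with DDT, 16.03 with rotenone, 22.96 with carbaryl, 14.7 with deltamethrin and 11.1 with imidacloprid, against 25.2 in control. Control was highest, but no end event inside the gene was listed, and the only one under its identifier, in the DDT library, lay outside the annotated gene.

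**Figure D5:**
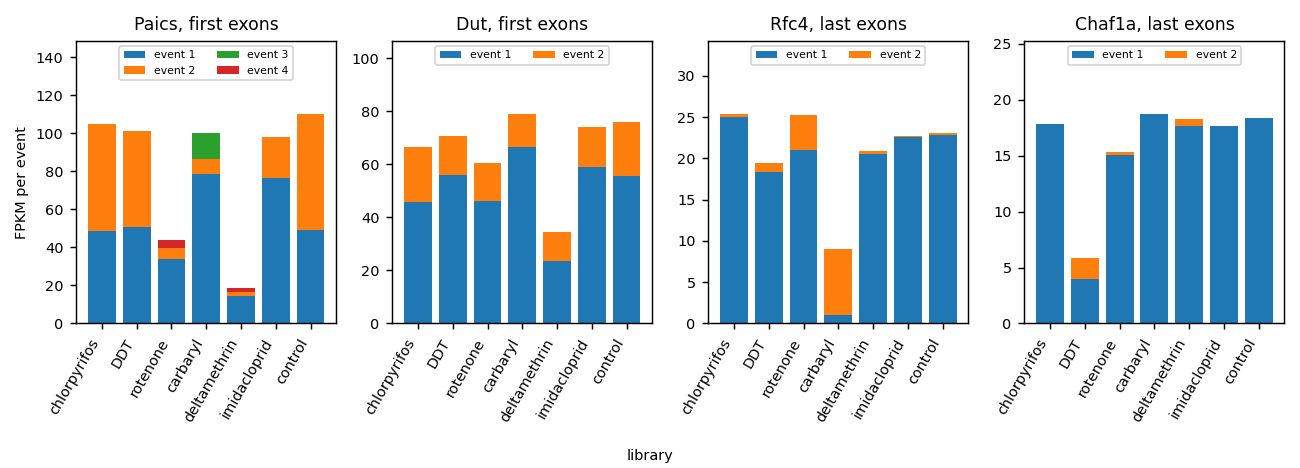
Stacked bars give FPKM of each listed first exon (Paics, Dut) or last exon (Rfc4, Chaf1a) in each library, and events are numbered within a gene by their summed FPKM. For Paics event 1 is the first exon ending at 76951835 and event 2 the shorter one. The low bars are deltamethrin and rotenone for Paics, deltamethrin for Dut, carbaryl for Rfc4 and DDT for Chaf1a.

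Chromatin behind the fork is rebuilt by CAF-1, and DNA methylation is copied by DNMT1 with its guide UHRF1. Chaf1a (chromosome 17, 56040439 to 56072289), the large subunit of CAF-1, stood at 17.8 FPKM with chlorpyrifos, 4.90 with DDT, 15.2 with rotenone, 18.7 with carbaryl, 18.0 with deltamethrin and 17.7 with imidacloprid, against 18.4 in control. DDT alone was low, with a log2 fold of -1.72. In that library 32.5% of the end total stood on a second last exon (56068691 to 56072289), which held 0% to 3.56% with the other insecticides and 0% in control. Chaf1b, the next subunit, gave opposite answers from its ends. Its start totals were 18.7 FPKM with chlorpyrifos, 24.6 with DDT, 22.1 with rotenone, 24.5 with carbaryl, 21.9 with deltamethrin and 25.9 with imidacloprid, against 29.9 in control. Its end totals were 16.7, 22.4, 20.4, 22.4, 19.98 and 23.6 FPKM in that order, against 12.04. Control was thus the highest by starts and the lowest by ends.

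Uhrf1 stood at 63.1, 60.7, 57.6, 59.6, 62.9 and 63.1 FPKM with chlorpyrifos, DDT, rotenone, carbaryl, deltamethrin and imidacloprid, against 66.6 in control. All exposed libraries were lower, with log2 folds of -0.20 to -0.08. Dnmt1, read from its starts, had 55.1 FPKM with chlorpyrifos, 43.7 with DDT, 42.1 with rotenone, 49.8 with carbaryl, 56.4 with deltamethrin and 51.3 with imidacloprid, against 54.8 in control. Rotenone and DDT were its lowest libraries. Slbp, which binds the RNA of the replication histones, lay between 29.9 and 35.3 FPKM, against 30.2.

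Of the regulators, E2f1 (chromosome 2, 154559407 to 154569892), a transcription factor that drives S-phase genes, stood at 16.4 FPKM with chlorpyrifos, 18.7 with DDT, 11.99 with rotenone, 15.3 with carbaryl, 13.8 with deltamethrin and 14.8 with imidacloprid, against 11.96 in control. It was higher with DDT by 0.61 on the log2 scale, and rotenone and control were nearly equal. The control start total was 11.1 FPKM and its end total 12.9. Its first exon has 2 listed ends, and the longer form held 59.0% of the start total with rotenone and 51.2% with deltamethrin, 18.2% to 18.7% with the other insecticides and 11.8% in control. Ccne1, cyclin E1, stood at 22.2, 23.9, 21.2, 21.8, 22.6 and 22.8 FPKM in the same order of insecticides, against 25.1 in control, which was the highest. Ccne2, cyclin E2, lay on both sides of control, at 10.4 with rotenone and 13.2 with DDT, against 12.2.

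Chlorpyrifos was highest for 7 genes (13.0% of all genes), carbaryl for 6 (12.5%), DDT for 5 (17.4%), imidacloprid for 5 (15.0%) and deltamethrin for 1 (12.8%). Carbaryl and deltamethrin were lowest for 4 each (14.0% and 14.7%), chlorpyrifos for 2 (14.1%) and imidacloprid for 1 (12.1%). Several of these differences rest on the control library. Control held the highest value for 7 of 31 genes (Cdc6, Pold1, Rrm1, Rrm2, Paics, Uhrf1 and Ccne1), where 12.8% of all genes were highest there. It held the lowest for 5 (Mcm4, Gins3, Pola1, Lig1 and E2f1), where 13.8% of all genes were lowest there. A difference seen with all 6 insecticides in these genes is therefore 1 difference from 1 control culture, and variation of that culture and exposure cannot be told apart.

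Of 70 further genes of origins, forks and nucleotide synthesis, 40 were usable, and their median log2 fold lay between -0.04 with rotenone and 0.04 with DDT and carbaryl. At least 1.2-fold lower were 2 to 4 of 40 and higher 3 to 6, depending on the insecticide, where 10.4% to 12.5% of all genes were lower and 10.8% to 12.3% higher. With rotenone 27 of the 40 were below the median of the other 6 libraries (49.8% of all genes), and with the other insecticides 13 to 23 were (46.6% to 52.2%). Rotenone was lowest of the 7 for 8 of the 40 (16.1%) and highest for 4 (16.5%). Deltamethrin and control were also lowest for 8 each (14.7% and 13.8%). Rpa1, of the complex that coats single-stranded DNA, was chosen after its values were seen. It stood at 26.0 FPKM with chlorpyrifos, 37.9 with DDT, 38.2 with rotenone, 39.0 with carbaryl, 14.4 with deltamethrin and 41.3 with imidacloprid, against 21.6 in control, so that deltamethrin was below control and the other 5 above it. Topbp1, which helps to fire origins, stood at 27.1 to 32.6 FPKM with the insecticides, against 17.7 in control. Dtymk, thymidylate kinase, was 2-fold lower with carbaryl, at 12.7 FPKM against 28.3 in control, and no other of the 40 was 2-fold lower. Mcm8, Dscc1, Dna2, Supt16 and Asf1b were highest in control, and Pold4, Top1, Dhodh, Gart, Adss, Tk2 and Dck were lowest there along with Topbp1. Of 15 usable mitosis genes, 13 were below the median of the other 6 libraries with rotenone (49.8% of all genes) and 12 with DDT (47.7%). Below it were also 9 with carbaryl (52.2%), 8 with deltamethrin (51.0%), 5 with chlorpyrifos (50.4%) and 2 with imidacloprid (46.6%). Their median log2 fold against control was -0.18 with rotenone, -0.18 with DDT, -0.10 with deltamethrin, -0.07 with carbaryl, -0.01 with chlorpyrifos and -0.00053 with imidacloprid. DDT held the lowest value for 7 of these 15 genes (15.1% of all genes), and rotenone for 5 (16.1%).

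Of 21 further E2F and cyclin genes of G1 and S, 12 were usable, and 10 of the 12 were lower with rotenone than in control (49.0% of all genes), with a median log2 fold of -0.17. Lower than control were also 9 with DDT (47.6%), 9 with deltamethrin (49.3%), 8 with carbaryl (50.1%), 5 with chlorpyrifos (50.0%) and 4 with imidacloprid (46.7%). Their medians were -0.09 with DDT, -0.09 with deltamethrin, -0.02 with carbaryl, 0.05 with chlorpyrifos and 0.02 with imidacloprid. Of 16 inhibitors of the cell cycle, 13 were usable, with medians of 0.04 to 0.09. Cdkn1a, the inhibitor of CDK2 that p53 induces, stood at 62.8 to 79.6 FPKM in exposed libraries, against 61.0 in control, and Cdkn1c and Btg1 were also lowest in control. Cdkn2d, an inhibitor of CDK4 and CDK6, was at 13.6, 15.5, 23.8, 1.97 and 20.9 FPKM with chlorpyrifos, rotenone, carbaryl, deltamethrin and imidacloprid, against 10.4 in control, and was listed at 0 with DDT.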

How the data were processed

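The submitters' processing notes name bcl2fastq (version 2.17.1.14) and cutadapt (1.9.1). They also name the aligner HISAT2 (2.0.1) and the build GRCm38. Which program computed FPKM could not be taken from these sources. The deposited files list FPKM above 0 for each transcript-structure event, per the file headers. With 1 library per group and no read counts, no test, interval or limit of detection is given.

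Distinct start and end events were summed per Ensembl identifier and library, and the mean of both sums was the gene's value. Folds used log2(FPKM + 1), with none where a library was at 0. A total under 5% of its partner counted as missing. Thresholds were 1.2-fold and 2-fold. Gene positions are from GENCODE on GRCm38 and promoters from RefSeq (GRCm38.p6). Tables were made with Python 3.11.15 and pandas 2.3.3. The steps were tested on simulated copies of the control library with small noise, in which a gene's starts and ends were changed by the same factor. That test does not cover genes whose starts and ends disagree between libraries.

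Genes, lists and thresholds were chosen with earlier results of these data known. Values in each library are given for genes highest or lowest in control, with a log2 fold of 0.5 or more, in the helicase ring or with ends that disagree. From the other replication genes and the inhibitors, those 2-fold apart or highest or lowest in control at a mean of 5 FPKM are named.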

Additional observations from a re-analysis of the deposited data

Results flagged for a closer look

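Events outside the start and end totals were looked at for the same genes, and those listed at 2 FPKM or more with an insecticide but not in control are given, a level chosen after the data were seen. Events of 1 gene with the same values in every library are given once. This rule takes the highest of 6 insecticide libraries against 1 control, and events listed in control only were not sought. The share of all genes' events that meet the rule was not computed, so these events cannot be read as an effect of exposure. A retained intron of Dnmt1 (chromosome 9, 20912308 to 20912572) reached 4.53 FPKM with deltamethrin and was listed with 4 of 6 insecticides. An exon variant of Dnmt1 (20941352 to 20941583) reached 4.69 FPKM with imidacloprid and was listed with no other insecticide. A retained intron of Orc6 reached 2.74 FPKM with deltamethrin and was listed with no other insecticide. A transcript of Slbp that skips 1 exon reached 4.73 FPKM with deltamethrin and was listed with 4 of 6 insecticides. Pola2, the accessory subunit of polymerase alpha, differed in direction between insecticides, with a log2 fold of 0.47 for DDT and -0.35 for carbaryl against control. The difference was not tested, and its start and end totals differed by up to 0.53 on the log2 scale in single libraries.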

How the results depend on the processing

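The median log2 folds against control were recomputed under 11 other settings for each insecticide, and 65 of 66 values moved by less than 0.07, the SD of the genes' median over all 21 pairs of libraries. The pairs share libraries and their signs depend on library order, so this SD is not a replicate error. All medians but that with rotenone were at most 0.07 from 0, so this limit cannot show that they were stable. With the larger end total and no limit on agreement, the deltamethrin median went from -0.04 to -0.10 and the imidacloprid median from 0.01 to -0.04. With the median of the other 6 libraries in place of control, the chlorpyrifos median was 0.03. With the larger end total of every gene and no limit on agreement, control was highest for 13 of 41 genes (13.9% of all genes), and rotenone lowest for 15 of 41 (15.9%). Leaving out 1 other library at a time, rotenone was lowest for 9 to 14 genes (18.2% to 18.7% of all genes), the highest count without DDT, and below the median for 25 to 27 (49.5% to 50.3%). Control was then highest for 7 to 10 (14.8% to 15.5%) and lowest for 5 to 6 (16.2% to 16.6%). The rotenone counts, centring of the control counts and the limit on ends in each library were choices made after seeing the data. No paired analysis was possible because each group has 1 library. The unknown depth limits what can be said of small differences.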
